A study of Homo sapiens with 6 samples.

Results

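The Notch genes examined here were 3 receptors (NOTCH1, NOTCH2, NOTCH3), 3 ligands (JAG1, JAG2, DLL1) and 4 genes known as Notch targets (HES1, HES4, HEY1, NRARP). They were chosen by name, with earlier results of these data known, and all 10 were found among the 36517 genes of the count table. At day 3, mRNA was sequenced from MDA-MB-453, an established line of human breast cancer cells. There were 3 control libraries (lv_con, cells given a lentivirus with the negative-control hairpin shNC) and 3 shtRF libraries (lv_shtRF, cells given a lentivirus with a hairpin against tRF-1-Ser). tRF-1-Ser is a fragment released when the 3′ trailer of a serine tRNA precursor is removed. The paper reports a qPCR check of the knockdown in its cell lines, without stating whether these RNA samples were part of it. These libraries do not measure tRF-1-Ser, so within these data the group names rest on the labels. Both groups thus carried a lentivirus and a hairpin, and the comparison asks which Notch transcripts differed with the tRF-1-Ser hairpin. The study calls its replicates biological, but what was replicated (transductions or dishes) is not stated, so p-values measure the spread between these libraries, which may be technical.

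Notch signalling passes between touching cells. A ligand of the Jagged or Delta-like family on one cell pulls on a Notch receptor of its neighbour, ADAM proteases and then gamma-secretase cut the receptor, and the freed intracellular part enters the nucleus. There it joins the DNA-binding protein RBPJ and a Mastermind coactivator and switches on targets such as HES1, HES4, HEY1 and NRARP. HES and HEY proteins are transcriptional repressors, and NRARP binds the nuclear complex and dampens it. In the breast, Notch activity takes part in luminal cell fate and in the growth of stem-like cells.

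Stretches of the promoters of HES1 and NRARP are shown because these were the targets that passed the test, in opposite directions, and a stretch of HES4 because it held the same RBPJ letters as HES1 but did not pass. They were taken from RefSeq promoters of GRCh38.p14 (250 bases before to 50 after the start), in which 8 of the 10 genes matched and DLL1 and HEY1 did not. Capitals mark matches that lie wholly within the printed letters, on either strand, of GTGGGAA or of its core TGGGAA (letters bound by RBPJ, the shorter contained in the longer) and of CACNAG (the N box bound by HES proteins). The HES1 stretch is chr3:194135898-194136144 (plus strand), the NRARP stretch chr9:137302272-137302521 (minus strand) and the HES4 stretch chr1:1000158-1000187 (minus strand).
HES1: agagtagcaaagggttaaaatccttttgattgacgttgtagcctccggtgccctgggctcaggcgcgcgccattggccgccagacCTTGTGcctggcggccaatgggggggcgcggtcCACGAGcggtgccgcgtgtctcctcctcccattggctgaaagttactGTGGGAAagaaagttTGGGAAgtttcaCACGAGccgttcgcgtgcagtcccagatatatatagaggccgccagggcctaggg
NRARP: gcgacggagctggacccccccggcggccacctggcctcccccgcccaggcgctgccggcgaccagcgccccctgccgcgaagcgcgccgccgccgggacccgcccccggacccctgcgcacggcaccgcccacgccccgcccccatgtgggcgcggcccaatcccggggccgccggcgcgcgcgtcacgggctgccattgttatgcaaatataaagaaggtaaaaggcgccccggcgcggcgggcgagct
HES4: ggctggggcgagtGTGGGAAagaatgcgga

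The HES1 window held GTGGGAA at position -85 from the start and a second TGGGAA at -70, on the same strand. The first letters of the 2 TGGGAA matches lie 14 bases apart. HES4 held GTGGGAA at -77, and the gene as drawn in the count table begins within that match. Over all 35116 promoter windows, 6.25% held GTGGGAA, 24% held TGGGAA at least once and 3.8% held it at least 2 times. CACNAG lay at -165, -132 and -58 of HES1 as well as at 15 after the start, and 1.51% of all windows held it at least 3 times, against 38.0% with at least 1. The windows of NOTCH1, NOTCH2, NOTCH3, JAG1, JAG2 and NRARP held no TGGGAA. NRARP held 1 CACNAG match, at -2, which runs across the start and so past the printed stretch. NOTCH1 held 2 that overlap each other, NOTCH2 and NOTCH3 held 1 each, and JAG1, JAG2 and HES4 held 0. These matches describe letters and not bound sites.

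The libraries held 63541413 to 78917459 counts. The Notch genes held from 4 counts (HEY1 in a control library) to 5304 (HES1 in an shtRF library), and only HEY1 stayed under 100 counts. Libraries correlated at 0.9973 to 0.998 within groups and at 0.9878 to 0.9894 between them (Pearson, log2(CPM + 1)). All 7 luminal epithelial markers were present, with summed levels of 4390 to 4499 CPM in control and 5661 to 6221 CPM in shtRF. The markers did not move together. KRT8 (mean 1556 CPM in control and 2690 CPM in shtRF), KRT18 and KRT7 rose, with KRT8 making the largest part of the difference. GATA3 fell (log2 fold change -0.14, edgeR adjusted p = 0.0397), and EPCAM, KRT19 and FOXA1 had an edgeR adjusted p above 0.05. Of 3 genes listed as low or absent in this line, the oestrogen and progesterone receptor genes ESR1 and PGR had at most 26 counts. The third, the E-cadherin gene CDH1, was present with 1265 to 1656 counts and rose by 0.28 on the log2 scale (adjusted p = 0.00288). The 8 endothelial and leukocyte markers had at most 16 counts in any library. Of the fibroblast markers COL1A1 fell from 32.2 to 20.9 CPM, and the other 3 had at most 20 counts. The part of these marker shifts in the Notch results was not tested. In bulk RNA, fewer cells expressing a gene and less of its RNA per cell cannot be told apart.

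Of the 10 Notch genes, 3 rose and 4 fell in the shtRF libraries, at a Benjamini-Hochberg adjusted p under 0.05 in edgeR's quasi-likelihood test. HES1, JAG1 and DLL1 rose, and NRARP, NOTCH3, JAG2 and NOTCH2 fell. Among all 19628 genes tested, 20.6% were higher and 18.9% were lower by this rule, 39.5% in all. A call was therefore common in this comparison, and the sizes and the pattern among family members are given below. The median log2 fold change was 0.04 over the 10 Notch genes and -0.003 over all genes tested. Levels are given in CPM (counts per 1000000, with library sizes scaled by TMM) and errors as SD over 3 libraries or as SE of the log2 fold change.

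**Figure D1:**
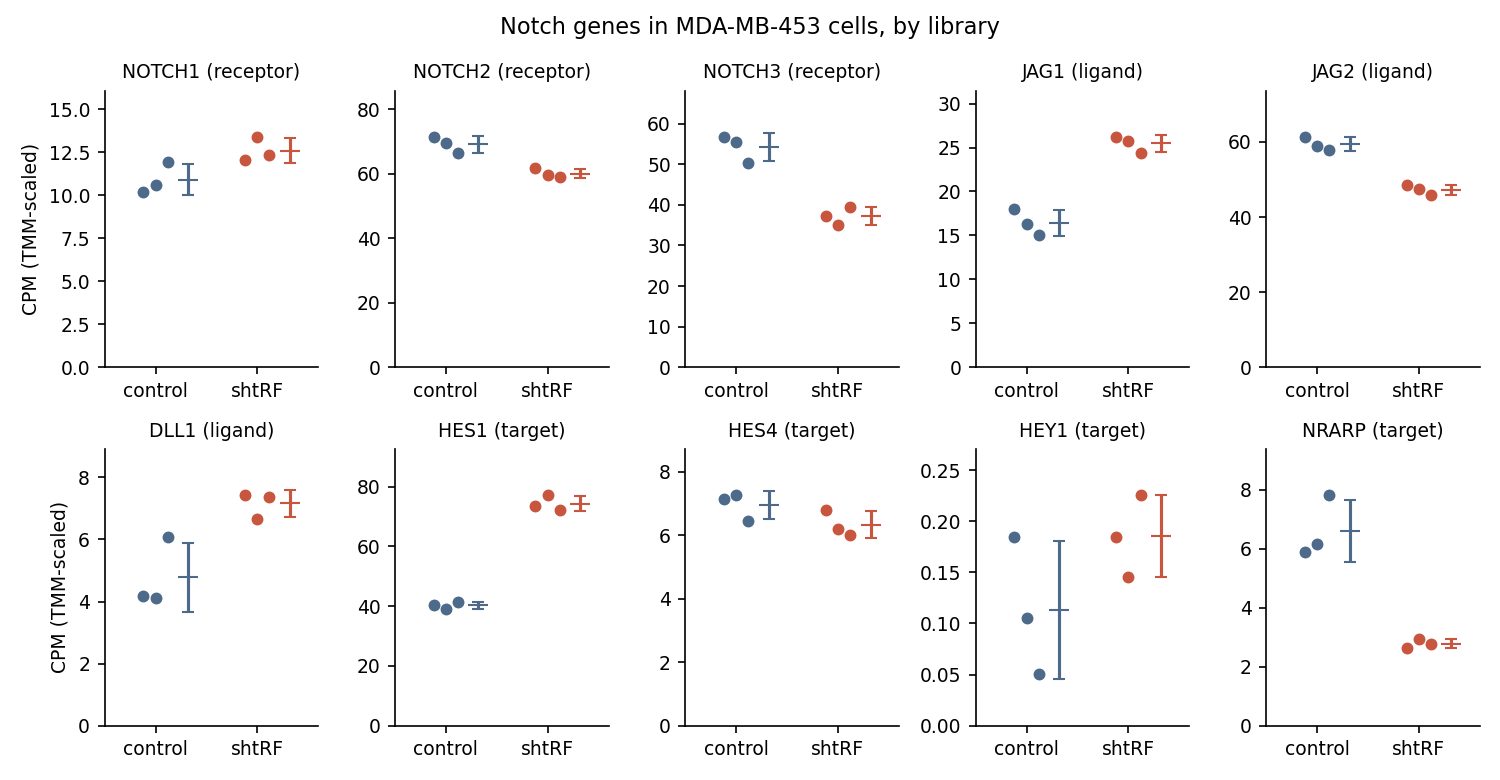
CPM of each Notch gene (vertical axis, from 0) in the 3 control and 3 shtRF libraries, with the mean and SD beside the points. HES1 lies at 39.0 to 41.5 CPM in control and 72.2 to 77.2 CPM in shtRF, while the groups of HES4 and HEY1 overlap.

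The targets came apart. HES1 (chromosome 3, 194136145 to 194138732, plus strand), a repressor that holds back differentiation, had 40.4, 39.0 and 41.5 CPM in the control libraries and 73.7, 77.2 and 72.2 CPM in the shtRF libraries. All 3 shtRF libraries were above all 3 control libraries by a gap far wider than the spread in either group. Its log2 fold change was 0.89 ± 0.06 (SE, edgeR adjusted p = 2.91e-11), a 1.85-fold rise. NRARP (chromosome 9, 137300482 to 137302251, minus strand), which is both a target and an inhibitor of the Notch nuclear complex, had 5.88, 6.15 and 7.83 CPM in control and 2.65, 2.93 and 2.79 CPM in shtRF. Every shtRF library was below every control library, although control replicate 3 stood above the other two. NRARP fell by 1.25 ± 0.13 on the log2 scale (SE, adjusted p = 1.25e-07), which was 2.38-fold. Without control replicate 3 it fell by 1.11 (adjusted p = 7.45e-07). Its change was larger in size than that of 95.7% of the genes tested, and that of HES1 was larger than 90.6%.

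HES4 and HEY1 did not pass. HES4 (chromosome 1, 998962 to 1000172, minus strand), a close relative of HES1, had 7.14, 7.26 and 6.45 CPM in control and 6.80, 6.19 and 6.01 CPM in shtRF. The groups overlapped, and its log2 fold change of -0.13 had a 95% interval of -0.35 to 0.08 (adjusted p = 0.343). A rise of the size of that of HES1 lay outside this interval. HEY1 (chromosome 8, 79764010 to 79767863, minus strand), a repressor related to the HES proteins, had 12, 8 and 4 counts in control and 13, 10 and 14 in shtRF. At this depth its log2 fold change of 0.73 had an interval of -0.48 to 1.94 (adjusted p = 0.353), so neither a rise like that of HES1 nor a lack of change could be told from the data.

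**Figure D2:**
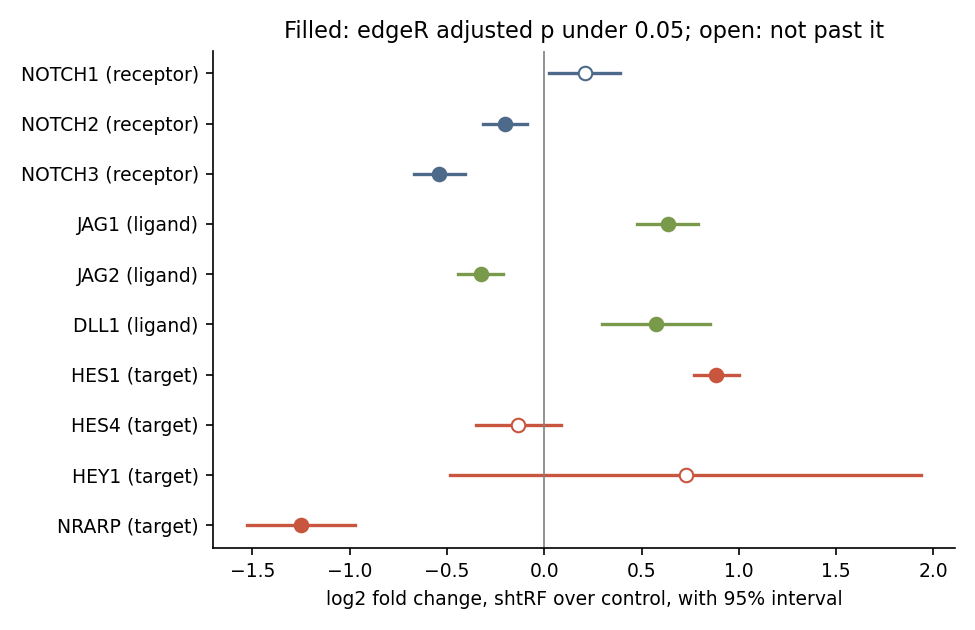
Log2 fold change of each Notch gene (shtRF over control, horizontal axis) with its 95% interval from edgeR, coloured by role; filled points have an adjusted p under 0.05. HES1 (0.89) and NRARP (-1.25) are the outermost filled points, and the interval of HEY1 is the widest.

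Among the ligands, JAG2 fell while JAG1 and DLL1 rose. JAG1 (chromosome 20, 10637684 to 10674107, minus strand), a Jagged ligand, had 18.0, 16.2 and 15.1 CPM in control and 26.2, 25.8 and 24.4 CPM in shtRF. The groups did not overlap, and the log2 fold change was 0.63 ± 0.08 (SE, adjusted p = 5.79e-07), or 1.55-fold. JAG2 (chromosome 14, 105140981 to 105168824, minus strand), the other Jagged ligand and the most abundant ligand here, had 61.4, 58.8 and 57.8 CPM in control and 48.5, 47.6 and 45.9 CPM in shtRF. It was lower in all 3 shtRF libraries, falling by 0.33 ± 0.06 on the log2 scale (SE, adjusted p = 5.59e-05). DLL1 (chromosome 6, 170282206 to 170306565, minus strand), a Delta-like ligand, had 4.18, 4.12 and 6.07 CPM in control and 7.43, 6.67 and 7.38 CPM in shtRF. Control replicate 3 lay closer to the shtRF libraries than to the other control libraries, yet below all of them. The log2 fold change of DLL1 was 0.58 ± 0.13 (SE, adjusted p = 0.00146) with this library and 0.79 (adjusted p = 1.66e-05) without it. JAG2 shares 7.33% of its exonic bases with the gene RP11-44N21.4 on the same strand and JAG1 0.926% with RP11-103J8.1 on the opposite strand. The first of these had a log2 fold change of -0.12 and did not pass (adjusted p = 0.386).

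Of the receptors, which span the membrane and carry the signal to the nucleus, NOTCH3 and NOTCH2 fell and NOTCH1 did not pass. NOTCH3 (chromosome 19, 15159038 to 15200981, minus strand) had 56.8, 55.5 and 50.2 CPM in control and 37.3, 35.05 and 39.5 CPM in shtRF. The groups were well apart, and NOTCH3 fell by 0.54 ± 0.06 on the log2 scale (SE, adjusted p = 4.34e-07), or 1.45-fold. NOTCH2 (chromosome 1, 119911553 to 120069626, minus strand) had 71.5, 69.4 and 66.3 CPM in control and 61.7, 59.5 and 58.9 CPM in shtRF. Its fall was small but larger than the spread between replicates, at 0.20 ± 0.05 on the log2 scale (SE, adjusted p = 0.00500). NOTCH1 (chromosome 9, 136494444 to 136545862, minus strand) had 10.2, 10.6 and 11.9 CPM in control and 12.02, 13.4 and 12.3 CPM in shtRF. The shtRF libraries lay just above the control libraries, and the log2 fold change of 0.21 (95% interval 0.02 to 0.39) did not pass (adjusted p = 0.0671). It passed only in the fit without control replicate 3 (0.28, adjusted p = 0.0203). In all, 4 of the Notch genes lay above and 4 below without overlap of the groups, where 24.9% and 23.8% of the genes tested did so, 48.7% in all.

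NOTCH2 has a near-identical partial copy, NOTCH2NL (chromosome 1, 146146203 to 146229026), between which short reads can be split. NOTCH2NL had 721 to 853 counts in control and 573 to 621 in shtRF, against 3656 to 5293 counts for NOTCH2. Its log2 fold change of -0.23 (adjusted p = 0.0657) was close in value to that of NOTCH2. How the reads were shared out between them is not stated.

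To compare genes with each other, levels were put per length as RPKM (reads per kilobase of exon and per 1000000 counted reads). In control HES1 was the highest at 19.9 ± 0.483 RPKM (SD, n = 3), ahead of JAG2 at 9.45 ± 0.315. HES4 at 6.34, NOTCH3 at 5.88, NOTCH2 at 4.19 and NRARP at 3.81 RPKM came next, of which HES4 and NOTCH3 overlapped in their libraries, as did NOTCH2 and NRARP. JAG1 at 1.96 and DLL1 at 1.51 RPKM overlapped too, followed by NOTCH1 at 1.12 and HEY1 at 0.0358 RPKM. In shtRF HES1 stood at 35.4 ± 1.04 RPKM and JAG2 at 7.27 ± 0.336 RPKM. NRARP at 1.54 RPKM there lay below JAG1 at 2.93 and DLL1 at 2.18 RPKM, while only NOTCH3 (3.90 RPKM) and NOTCH2 (3.51 RPKM) overlapped. The lengths are those of all annotated exons together, so a gene whose cells use a short transcript is placed too low.

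The shares of the receptors and of the ligands did not overlap between the groups for any of the 6 genes. Of all genes tested, 48.7% did not overlap in CPM. The shares within each set add up to the whole, so these are not 6 separate results. NOTCH3 made up 53.4%, 53.2% and 50.9% of the summed RPKM of the 3 receptors in control and 44.8%, 43.2% and 46.9% in shtRF. NOTCH2 made up 37.4 ± 0.218% and 40.6 ± 1.22% (SD, n = 3), and NOTCH1 10.1 ± 1.25% and 14.5 ± 1.09%. The share of NOTCH2 rose although its own level fell, since NOTCH3 fell further. The summed receptor level dropped from 11.2 ± 0.493 to 8.66 ± 0.325 RPKM. The ligands turned towards JAG1 and DLL1. JAG2 made up 73.8%, 74.3% and 71.2% of the 3 ligands in control and 58.5%, 59.4% and 58.2% in shtRF. JAG1 went from 15.2 ± 1.17% to 23.7 ± 0.452% and DLL1 from 11.7 ± 2.72% to 17.6 ± 1.05%. The gain of DLL1 was 5.91 percentage points here and 2.995 with shares of counts in place of RPKM. The summed ligand level of 12.9 ± 0.286 RPKM in control and 12.4 ± 0.595 RPKM in shtRF differed by less than the SD in shtRF. These shares do not depend on the scaling of libraries and were not tested. The summed levels do depend on it. RPKM was taken without the TMM factors, which were 1.01 to 1.03 in control and 0.961 to 1.01 in shtRF, so part of the drop in summed receptor level reflects scaling.

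**Figure D3:**
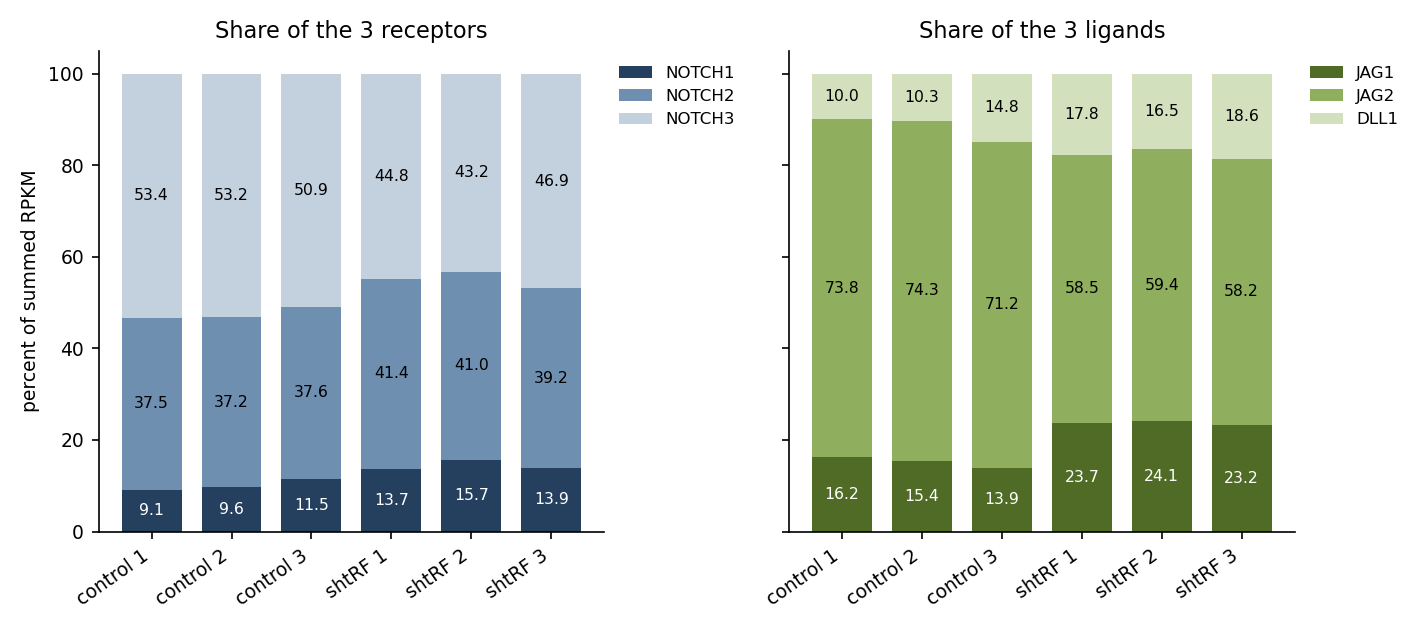
Share of each gene in the summed RPKM of the 3 receptors (left) and of the 3 ligands (right), in percent, as stacked bars from 0 for each library. JAG2 takes 71.2% to 74.3% of the ligand bars in control and 58.2% to 59.4% in shtRF.

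The rest of the pathway was examined through a list of 82 other genes, of which 81 were in the count table and 69 had enough counts to test. Of these 21 were higher (30.4%) and 14 were lower (20.3%), beside 20.6% and 18.9% of all genes, and their median log2 fold change was 0.009. Genes outside the rule for naming, which took 5 genes in each direction by size of change, were picked after their values were seen. Exons of other genes cover part of several genes named below. They cover 24.1% of the exonic bases of ADAM17, 21.0% of EPN2, 14.1% of APH1A and 10.3% of CCND1. For MAML1, DNM2 and NEDD4L the cover is 9.88%, 5.77% and 5.41%. How reads from such shared bases were counted is not stated. Where the groups of the 69 genes did not overlap, 21 lay above and 15 below, beside 24.9% and 23.8% of all genes tested.

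Of the 9 genes of receptor cleavage, all tested, 5 rose (55.6%) and none fell in edgeR's test. Over all genes, 20.6% were higher and 18.9% lower. FURIN, the convertase that makes the first cut of the Notch precursor, had 11.1, 11.6 and 11.6 CPM in control and 21.5, 23.3 and 21.2 CPM in shtRF. It was higher in all 3 shtRF libraries, by 0.94 ± 0.08 on the log2 scale (SE, adjusted p = 1.39e-09). Smaller rises were seen on the log2 scale, 0.30 for the protease ADAM10, 0.42 for PSENEN and 0.18 for NCSTN, the latter 2 being gamma-secretase subunits. That of NCSTN lay close to the threshold (edgeR adjusted p = 0.0403). For PSENEN, exons of neighbouring genes cover 56.5% of the exonic bases. ADAM17 (-0.09), PSEN2 (0.005), APH1A (-0.12) and APH1B (-0.47) did not pass in edgeR's test. At an unadjusted p under 0.05 the number lower was 1, APH1B. DESeq2 called 0 of the 9 lower. In limma-trend, run on RPKM without TMM scaling, 1 was called lower with either pseudocount, and this need not be APH1B.

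Further receptors and ligands were rare. DLL4, the Delta-like ligand known from endothelium, had 2.27, 2.08 and 1.92 CPM in control and 3.98, 3.67 and 4.30 CPM in shtRF. It rose by 0.93 ± 0.15 on the log2 scale (SE, adjusted p = 2.34e-05), while the 4 endothelial markers had at most 16 counts in any library. The ligand-like gene DLK2 rose as well (0.96), and MFAP2, a microfibril protein that can bind ligands, fell by 1.94, both at a mean under 2 CPM. NOTCH4 had 8 to 30 counts and did not pass, and DLL3, DNER, DLK1 and MFAP5 had too few counts to test.

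In the nuclear complex the Mastermind coactivator MAML1 fell and the acetyltransferase KAT2B rose. MAML1 had 38.3, 40.0 and 38.6 CPM in control and 23.99, 25.2 and 25.8 CPM in shtRF, falling by 0.64 ± 0.06 on the log2 scale (SE, adjusted p = 2.06e-08). KAT2B had 10.5 CPM in each control library and 18.0, 14.1 and 18.4 CPM in shtRF, and its rise on the log2 scale was 0.68 ± 0.09 (SE, adjusted p = 4.16e-06). RBPJ itself had a mean of 27.5 ± 2.65 CPM in control libraries and 31.1 ± 0.929 CPM in shtRF libraries, and its log2 fold change of 0.17 did not pass (adjusted p = 0.0532). Of the 8 genes of the complex that were tested, 2 rose (25.0%) and 1 fell (12.5%), beside 20.6% and 18.9% of all genes. Of the 13 corepressor genes 4 rose (30.8%) and 2 fell (15.4%). Among those that rose, TLE1 had 93.1 ± 1.63 CPM in control and 134 ± 11.4 CPM in shtRF (log2 fold change 0.53, adjusted p = 2.58e-07). Those that fell were the deacetylases HDAC1 (-0.41) and HDAC2 (-0.35).

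Among 16 tested genes of turnover and endocytic antagonism, 4 rose and 4 fell (25.0% each way), beside 20.6% higher and 18.9% lower over all genes. The ubiquitin ligase NEDD4L rose by 0.54 (adjusted p = 5.18e-07). CDK8, a kinase that marks the Notch intracellular part for decay, had 26.3, 27.1 and 25.2 CPM in control and 16.9, 18.2 and 17.3 CPM in shtRF, a fall of 0.58 ± 0.07 on the log2 scale (SE, adjusted p = 5.09e-07). DTX4, of the Deltex ubiquitin ligases, fell by 0.49 (adjusted p = 0.00586), and without control replicate 2 it no longer passed (-0.36, adjusted p = 0.0545). FBXW7, the ligase subunit that recognises the marked receptor, was 174 ± 0.717 CPM and 174.5 ± 4.75 CPM (log2 fold change 0.004, adjusted p = 0.959). Of the 7 tested genes of receptor glycosylation 2 rose and 2 fell (28.6% each way). One of the latter, XXYLT1, which extends xylose on the receptor, fell by 0.49 from 10.0 ± 0.52 to 7.17 ± 0.264 CPM (SD, n = 3, adjusted p = 2.16e-04). Of the 6 tested genes of ligand endocytosis, EPN2 and DNM2 rose (33.3%), by 0.27 and 0.31. None fell in edgeR's test, in DESeq2 or in limma-trend. None of the other 4 had an unadjusted p under 0.05.

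Among the remaining HES and HEY genes and other genes known as Notch targets 6 were tested. None rose in edgeR's test, in DESeq2 or in limma-trend, and 4 fell in edgeR's test (66.7%). Over all genes, 20.6% were higher and 18.9% lower in edgeR's test. The 4 were MYC (-1.48), HES6 (-0.46), CCND1 (-0.27) and GATA3 (-0.14), of which GATA3 lay close to the threshold (edgeR adjusted p = 0.0397). HES6, a family member that can oppose HES1, had 20.9, 18.5 and 22.2 CPM in control and 15.0, 15.3 and 14.5 CPM in shtRF, so the groups did not overlap (adjusted p = 7.10e-05). HES7 (0.08) and SOX9 (-0.20) did not pass, and neither had an unadjusted p under 0.05. HES2, HES5, HEY2 and HEYL had at most 22 counts in any library and were not tested, so a change in them was not detectable at this depth.

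**Figure D4:**
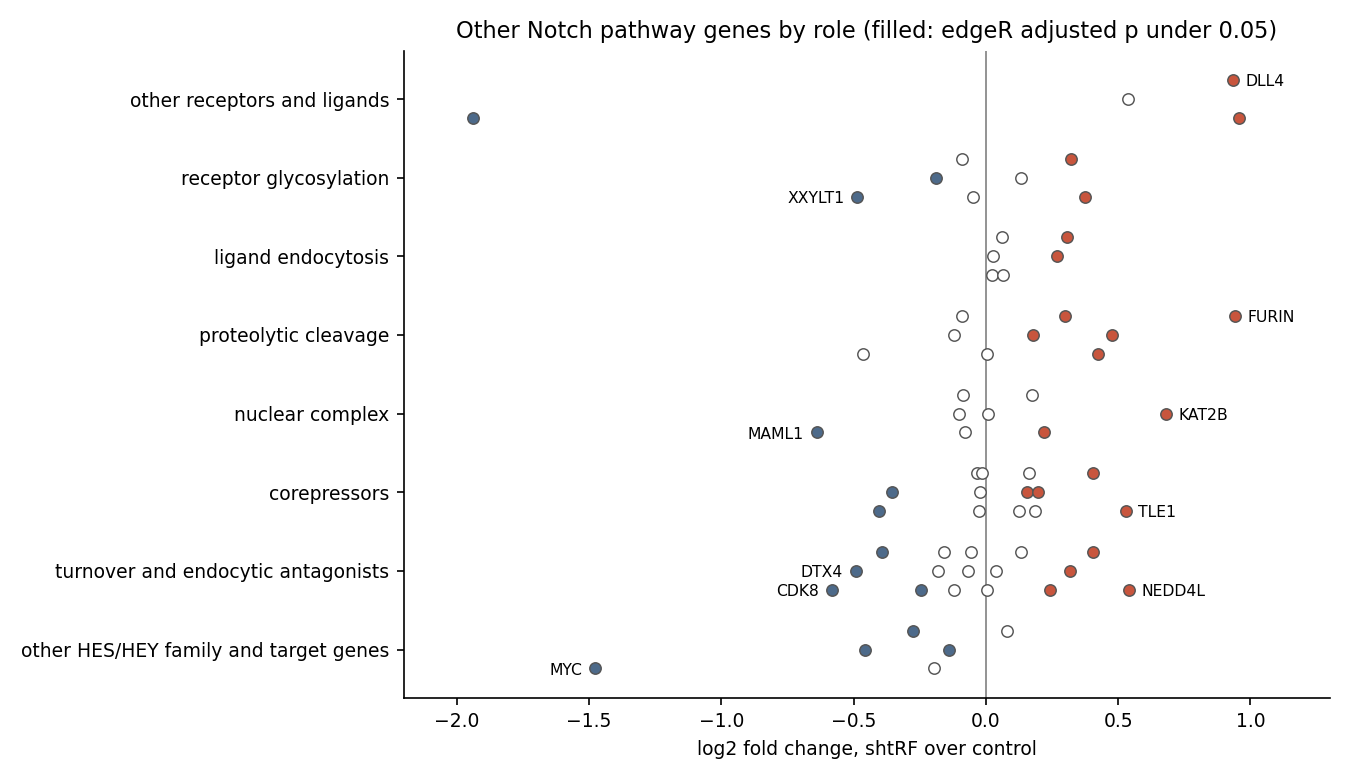
Log2 fold change (shtRF over control, horizontal axis) of the 69 tested pathway genes, grouped by role on the vertical axis; filled points have an adjusted p under 0.05 and the 10 genes of the naming rule are labelled. The 5 filled points of proteolytic cleavage lie above 0, and the 4 filled points of the HES/HEY and target group lie below 0. Over all genes tested, 20.6% were higher and 18.9% lower at this threshold.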

How the data were processed

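mRNA libraries were prepared with a stranded kit and read from both ends on a NovaSeq instrument. The authors deposited a table of unnormalised counts for each gene in 6 libraries, and RPKM values. The submitters' processing notes name Trimmomatic 0.36, featureCounts, Subread 1.5.1, edgeR 3.12.1 and GRCh38. The aligner, the strand setting and the treatment of reads with several matches are not given in the sources used here. In each library 74.2% to 77.1% of counts of 1 to 4 were even, as when both mates of a pair are counted, so genes with few counts rest on fewer fragments. The RPKM copy used here held 4997 complete genes, and of 4991 matched genes 100% of the deposited RPKM values equalled count / length / library total (relative tolerance 1e-06), so RPKM was recomputed from the counts for all genes.

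Genes were tested across the whole table with edgeR 4.0.16 (R 4.3.3): filterByExpr (minimum count 10), TMM (factors 0.961 to 1.03), glmQLFit and glmQLFTest on a design holding the group alone, and Benjamini-Hochberg adjustment over 19628 genes. Alternatives were RLE and upper quartile scaling, 3 other filters, DESeq2 1.42.0, limma-trend (limma 3.58.1) on log2(RPKM + 1) and log2(RPKM + 0.1), halved counts, a replicate block and leaving out each library. The Notch genes and the lists were chosen with earlier results of these data known. Named pathway genes were, in each direction, the 5 that changed most among those with an adjusted p under 0.05 and a mean of at least 2 CPM. NOTCH2NL and genes that share exonic bases with a Notch gene were added. No 2 libraries of a group agreed within sampling noise (chi-square per degree of freedom 6.31 to 19.4). The values of 1 pathway gene are not reported here.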

Additional observations from a re-analysis of the deposited data

How the results depend on the processing

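The 4 falling Notch genes passed in each of the 16 alternatives, as did HES1, JAG1 and DLL1. NOTCH1 passed without control replicate 3 (0.28, adjusted p = 0.0203), which made the number of rising Notch genes 4; its adjusted p reached 0.336 on log2(RPKM + 0.1). HEY1 was tested in 13 alternatives, with log2 fold changes of 0.03 to 1.23, and passed in none, nor did HES4 in 16. Of the other pathway genes, 15 to 23 rose and 12 to 16 fell over all alternatives, with 16 and 16 on log2(RPKM + 1), 15 and 15 on log2(RPKM + 0.1) and 18 and 15 under upper quartile scaling. Over all genes, where 4046 were higher and 3704 lower, the balance turned to 3508 and 4174 under upper quartile scaling, 2900 and 3803 on log2(RPKM + 1), 2903 and 3840 on log2(RPKM + 0.1), 3593 and 3707 with at least 1 CPM in 3 libraries and 3777 and 3778 with at least 10 counts in every library. After centring on each group, libraries that share a replicate number had correlations of 0.06, 0.02 and 0.02 over the genes tested. Libraries with unlike numbers were not compared in this way, so whether the number pairs libraries was not settled. Under the replicate block 3 Notch genes rose, 4 fell, and 23 and 14 other pathway genes did. With shares of counts in place of RPKM, which puts more weight on long genes, the share of JAG1 among the ligands rose by 11.5 percentage points in place of 8.52, and that of DLL1 by 2.995 in place of 5.91. Without 1 library each, these differences ran from 7.89 to 9.04 and from 5.04 to 7.48. Depth limits HEY1 and the untested genes.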
